A study of Mus musculus with 33 samples.

Results

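Kupffer cells are the resident macrophages of the liver, and 10 genes that mark them or macrophages in general were followed across 33 mouse libraries. The genes were taken from the 21671 rows of the deposited expression table by their symbols, and all 10 were found. Of these, 6 mark the resident Kupffer cell (Clec4f, Vsig4, Cd5l, Timd4, Marco and Cd163) and 4 mark macrophages of any tissue or origin (Csf1r, Cd68, C1qa and C1qb). All 10 passed the filter on low values in both experiments. Levels are in RPKM, that is reads scaled to gene length and library size, so genes can be set side by side.

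The study asked how the oncogene MYC and activated β-catenin act together in the liver of C57BL/6 mice. In the short-term experiment, 6- to 8-week-old mice received AAV8-TBG-CRE by vein, a viral vector whose TBG promoter limits the Cre recombinase to hepatocytes, and the liver was taken after 4 days. The 20 animals were 5 wild-type mice, 5 with b-cat Ex3, an allele from which Cre removes the third exon of the β-catenin gene and so stabilises the protein, 5 with R26-lslMYC, a MYC transgene switched on by Cre, and 5 with both. All 20 received the vector, the wild-type mice included. In the tumour experiment, 3 liver nodules from Alb-CreERT2/R26-lslMYC mice and 3 from mice that also carried b-cat Ex3 were set against 7 wild-type livers taken 4 days after an intraperitoneal dose of 4-OHT, the drug that activates CreERT2. Alb-CreERT2 is driven by the albumin promoter, so both designs aim the alleles at hepatocytes and not at the macrophages measured here. The groups are called Ex3, MYC and MYC+Ex3 livers, 4-OHT livers, and MYC and MYC+Ex3 tumours. The labels do not give the age of the tumour-bearing mice, and they do not say whether nodules came from separate animals, so p-values measure the spread between these samples.

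Kupffer cells line the liver sinusoids, where they take up bacteria, dying cells and worn red cells from the blood. Their survival depends on the receptor encoded by Csf1r and its ligands CSF1 and IL-34. Most are seeded before birth and renew themselves in place. When they are lost, blood monocytes can enter the liver and take on the Kupffer programme step by step, with Timd4 among the late genes. Bulk tissue cannot tell fewer cells of a type from less RNA per cell, and this holds for every value below.

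Depth was 3.75 to 7.31 M reads in genes for the short-term livers and 6.65 to 9.82 M for the 4-OHT livers and tumours. The experiments are on different scales: the highest RPKM of any gene was 220 to 396 in a short-term library and 42.9 to 67.5 in a library of the tumour experiment. In reads per kilobase, the highest gene held 1472 to 1648 in each short-term library and 362 to 505 in each library of the tumour experiment. This ceiling is nearly constant within an experiment, and how the highest values were limited is not given in the sources used here. Cd5l reached 52.9 to 70.7% of the highest RPKM in the 4-OHT livers, C1qb 46.7 to 55.7%, C1qa 47.6 to 54.9%, Clec4f 47.1 to 53.6% and Vsig4 33.5 to 47.3%. Values are therefore compared only within an experiment. Myc itself read 0.748 to 4.11 RPKM in wild-type and 3.12 to 4.81 RPKM in MYC livers, and whether reads of the transgene count there is not given in the sources used here. Axin2, a target of β-catenin, read 10.6 to 24.9 RPKM in Ex3 livers against 2.73 to 4.3 RPKM in wild-type livers. Reads of the skin keratins Krt5, Krt14 and Krt17 summed to more than 1 RPKM in 10 of the 20 short-term libraries. Of these, 1 was MYC and 3 came from each other group, and values within the sets with and without keratin reads are given where they matter. The libraries with keratin reads held 3.75 to 5.1 M reads in genes and those without held 4.39 to 7.31 M. The sets thus differ in depth too. MYC tumour replicate 2 stood apart from the other MYC tumours for most of the resident markers, and results of the MYC tumours are given with and without it further on.

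In control livers the 10 genes spanned a wide range of levels. In the 5 wild-type short-term livers the mean was highest for Cd5l, at 107 ± 22.5 RPKM (SD), followed by Clec4f at 99.4 ± 17.3, C1qa at 97.2 ± 23 and C1qb at 93.3 ± 18.7. These 4 means lie within 1 SD of each other. Vsig4 came next at 63.8 ± 13.2 RPKM, then Csf1r at 31.4 ± 7.64 and Cd68 at 21.5 ± 8.28. Marco (14.7 ± 10.9 RPKM), Timd4 (13.8 ± 7.82) and Cd163 (12.1 ± 3.75) were the lowest, and their ranges overlapped. In the 7 4-OHT livers Cd5l was again highest at 32 ± 3.03 RPKM, with C1qa at 26.1 ± 3.12, C1qb at 26.1 ± 2.52 and Clec4f at 25.7 ± 3.36. By mean level Cd5l ranked 162nd and Clec4f 361st of the 21671 genes there. All 10 were thus clearly detected in normal liver, and none was at 0 in any library. How far the ceiling limited the highest of them, and so the size of their differences, is not known.

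C1qa and C1qb encode 2 chains of complement component C1q, and the ratio of their RPKM was 0.83 to 1.18 in all 33 libraries. Across the 20 short-term livers, deviations from the group mean on the log2 scale were shared by the whole set. The correlation of each gene with the mean of the other 9 ran from 0.54 for Cd163 and 0.62 for Marco to 0.93 for C1qa. In the 13 libraries of the tumour experiment it ran from 0.57 for Cd68 to 0.97 for Cd5l. The genes of the whole table whose deviations followed the mean of the 10 most closely in the short-term livers were Lcp2 (r = 0.953), Emr1, the gene of the macrophage surface protein F4/80 (0.943), C1qc, the third C1q chain (0.936), Arhgap9 (0.933) and Cfp, the gene of properdin (0.919). In the tumour experiment they were P2ry12 (0.975), Il18bp (0.972), Clec1b (0.969), Fcna (0.966) and Il13ra1 (0.964). These correlations describe 20 and 13 libraries that share depth and tissue make-up, and the second set leans on MYC tumour replicate 2. Without it the correlation with the other 9 genes ran from 0.22 for Marco and 0.37 for Cd163 to 0.93 for Cd68, and the 5 genes named last correlated at 0.87 to 0.98 with the mean of the 10.

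The sequences before the start sites of these genes were read as a description. Macrophage genes are bound by the lineage factor PU.1, whose motif has the core GAGGAA. RefSeq promoters (GRCm38.p6) were found for 8 of the 10 genes, and the 250 bases before the start were searched on both strands. Of the 8, 5 held GAGGAA or its complement TTCCTC (C1qb, Cd5l, Cd68, Marco and Vsig4), against 23.3% of 32851 promoters. Another motif was searched too, TGCTGA, the half-site of the MAF factors. TGCTGA or its complement TCAGCA stood in the windows of C1qb, Cd5l, Clec4f and Timd4, against 16.1% of all promoters, and is not marked below. The 4 shown are the 2 genes with the largest differences in MYC+Ex3 tumours, Clec4f (chr6:83656117-83656366 on the minus strand) and Timd4 (chr11:46810549-46810798 on the plus strand), and the 2 with the smallest among those with an entry, Cd68 (chr11:69666171-69666420 on the minus strand) and C1qb (chr4:136886201-136886450 on the minus strand). They are written 5′ to 3′ on the gene's strand, with GAGGAA or TTCCTC in capitals.
Clec4f: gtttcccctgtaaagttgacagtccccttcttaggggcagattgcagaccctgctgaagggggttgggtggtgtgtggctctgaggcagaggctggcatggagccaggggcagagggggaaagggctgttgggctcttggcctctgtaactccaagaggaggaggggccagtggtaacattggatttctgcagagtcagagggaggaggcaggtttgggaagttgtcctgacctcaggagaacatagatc
Timd4: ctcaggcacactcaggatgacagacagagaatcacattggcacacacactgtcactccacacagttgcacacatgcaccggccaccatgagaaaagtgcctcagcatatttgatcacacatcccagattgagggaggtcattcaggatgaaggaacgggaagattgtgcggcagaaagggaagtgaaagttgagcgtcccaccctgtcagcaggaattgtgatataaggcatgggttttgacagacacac
Cd68: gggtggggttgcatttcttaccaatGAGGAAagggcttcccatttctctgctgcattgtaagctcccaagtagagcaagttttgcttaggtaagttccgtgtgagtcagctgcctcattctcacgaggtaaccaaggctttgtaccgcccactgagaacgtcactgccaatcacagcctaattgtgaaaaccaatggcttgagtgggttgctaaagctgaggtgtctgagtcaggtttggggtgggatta
C1qb: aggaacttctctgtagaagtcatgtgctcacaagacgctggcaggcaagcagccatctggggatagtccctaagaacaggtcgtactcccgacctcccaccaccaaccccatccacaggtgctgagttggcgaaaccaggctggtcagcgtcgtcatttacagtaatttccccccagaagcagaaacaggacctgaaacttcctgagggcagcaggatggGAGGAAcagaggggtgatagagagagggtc
GAGGAA stands in the windows of Cd68 and C1qb and not in those of Clec4f and Timd4. Cd5l, Marco and Vsig4 held it too and fell in 1 or both tumour groups, and Cd163 lacked it. In MYC+Ex3 tumours the genes without it, Clec4f (-2.43), Timd4 (-2.40) and Cd163 (-1.82), had the largest differences of the 8. Next came Vsig4 (-1.66 ± 0.444 SE), within its SE of Cd163. In MYC tumours Vsig4 (-2.19) differed by more than Cd163 (-2.14) and Timd4 (-2.11), so the order did not hold there. A link between either motif and the change was not tested. A match is a stretch of letters and shows no binding.

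At day 4, activated β-catenin alone left the macrophage genes without a called difference. Of the 10, 0 were called at a limma adjusted p under 0.05 and 0 had an unadjusted p under 0.05, while 0.132% of the 13688 genes tested were called. The differences on the log2(RPKM + 1) scale ran from -0.46 ± 0.443 (SE) for Marco to 0.20 ± 0.279 for Cd68. Clec4f read 97.6, 85.1, 84.1, 101 and 95.3 RPKM in Ex3 replicates 1 to 5 and 110, 68.8, 108, 103 and 107 in the wild-type livers. All 5 Ex3 livers lay inside the wild-type range, whose lowest value came from replicate 2.

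MYC raised Cd68 and lowered Cd163 within 4 days. Of the 10 genes, 1 was called higher, where 16.9% of the 13688 genes tested were, and 1 was called lower, where 5.36% were. Shares of this size leave the macrophage genes close to the whole table. The median difference of the 10 was -0.12, and that of all genes tested 0.07. Cd68, the gene of a lysosomal glycoprotein of phagocytes, read 44.4, 35, 38.8, 28 and 55.9 RPKM in MYC livers and 19.9, 11.8, 34.7, 21.8 and 19.5 in wild-type livers. Of the 5 MYC livers, 4 lay above every wild-type liver. The difference was 0.92 ± 0.279 (SE; limma adjusted p = 0.0225), and the group mean was 1.88 times that of wild type. Cd163, the receptor that clears haemoglobin bound to haptoglobin, read 5.51, 6.49, 7.1, 1.67 and 9.84 RPKM against 7.69, 9.59, 14.3, 17.2 and 11.9. Here 4 of the 5 MYC livers lay below every wild-type liver, and the difference was -0.97 ± 0.303 (SE; limma adjusted p = 0.0257), with a group mean 1.98-fold lower. Rescaling each library by its median ratio took the share of this comparison's calls that were higher from 75.9 to 59.1%.

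Both calls rested on few libraries. Cd68 lost its call without wild-type replicate 2 (0.73, limma adjusted p = 0.0714), MYC replicate 1 (0.87, 0.0544) or MYC replicate 5 (0.79, 0.0524). Cd163 lost its call without wild-type replicate 3 or 4 or MYC replicate 1 or 4, and its difference was -0.65 without MYC replicate 4 (limma adjusted p = 0.075). Within the libraries without keratin reads, 2 wild-type and 4 MYC livers, 0 of the 10 genes were called, with Cd68 at 0.68 and Cd163 at -0.51. The set with keratin reads holds 1 MYC liver, replicate 4, in which Cd68 (28 RPKM) was above and Cd163 (1.67) below the 3 wild-type livers of that set. With a keratin term in the fit both calls were kept, at 0.78 (limma adjusted p = 0.0444) and -0.98 (0.0308).

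Marco, a scavenger receptor for bacteria, read 26.9, 12.9, 36.7, 29.4 and 42.5 RPKM in MYC livers against 8.98, 4.07, 20.3, 31 and 9.2 in wild-type livers. The group mean was 2.02 times that of wild type, the ranges overlapped, and the difference of 1.16 ± 0.443 (SE) missed the threshold (limma adjusted p = 0.0663). It passed without any 1 of wild-type replicate 3 or 4, MYC replicate 2 or MYC+Ex3 replicate 4, with values of 1.16 to 1.49. Clec4f, a lectin receptor found on Kupffer cells alone among macrophages, read 77.6, 80.4, 117, 56.2 and 85 RPKM (difference -0.27 ± 0.178, limma adjusted p = 0.297). Vsig4, the complement receptor CRIg, differed by -0.40 (0.212), Timd4, a receptor for dying cells, by -0.47 (0.289) and Csf1r by -0.47 (0.198). MYC replicate 4 was the lowest of the 5 for Clec4f, Vsig4, Timd4, Cd163 and Csf1r, and it is the MYC liver with keratin reads. Cd5l, a secreted survival factor of macrophages, differed by 0.26 (limma adjusted p = 0.284), and C1qa and C1qb by 0.03 and 0.10. The signs of the last 2 turn after rescaling (-0.07 and -0.01).

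The ratio of Clec4f to Cd68 within a library sets the resident marker against the general one, and a common scaling of the library cancels in it. An effect of the ceiling need not cancel. In wild-type livers Clec4f stood at 20.7 to 39.7% of the highest RPKM and Cd68 at 3.55 to 12.8%. The ratio was 3.13 to 5.83 in wild-type, 3.31 to 4.95 in Ex3, 1.52 to 3.01 in MYC and 1.37 to 4.61 in MYC+Ex3 livers. All 5 MYC livers lay below all 5 wild-type livers, while the MYC+Ex3 livers overlapped both groups. The ratio was chosen after the values were seen and was not tested.

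**Figure D1:**
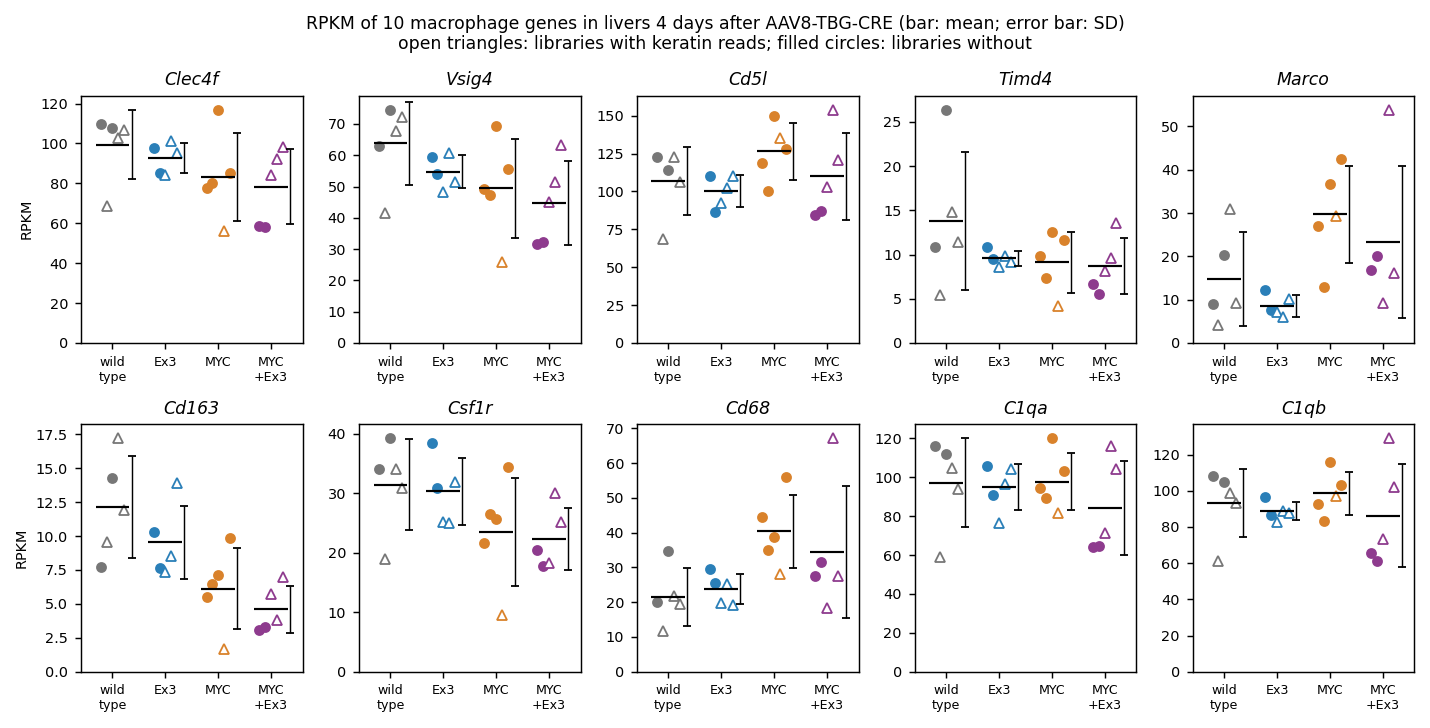
RPKM (y axis) of each gene in the 5 libraries of each short-term group, with the group mean as a bar and the SD as an error bar; triangles are libraries with keratin reads. Cd68 lies above the wild-type range in 4 of 5 MYC livers, and Cd163 lies below it in all 5 MYC+Ex3 livers.

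With MYC and Ex3 together, Cd163 was the gene of the 10 that was called. Lower calls were 1 of 10, where 6.18% of the 13688 genes tested were called lower, and higher calls were 0 of 10, where 17.9% were. Cd163 read 3.05, 3.29, 5.76, 3.84 and 6.98 RPKM, every value below the lowest wild-type liver. The difference was -1.24 ± 0.303 (SE; limma adjusted p = 0.00504), the group mean was 2.65-fold lower, and the call was kept in each of the 20 fits that left out 1 library (-1.38 to -1.11). It was also called within the libraries without keratin reads (-1.47, limma adjusted p = 0.00868) and within those with them (-1.08, 0.0288). Against Ex3 livers Cd163 was again the called gene of the 10 (-0.93 ± 0.303 SE, limma adjusted p = 0.0333), where 4.7% of genes were called lower, but this call was lost without any 1 of Ex3 replicates 1, 4 and 5 and MYC+Ex3 replicates 1, 2 and 4, and within the keratin-bearing libraries (-0.72, limma adjusted p = 0.134). Rescaling took the share of calls that were higher from 74.4 to 61.2% against wild type and from 77.7 to 67.1% against Ex3 livers.

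None of the other 5 resident markers passed, and they went both ways. Vsig4 read 31.7, 32.3, 45.1, 51.5 and 63.2 RPKM (-0.52 ± 0.223 SE, limma adjusted p = 0.0948), Clec4f 58.6, 58.1, 84.2, 92.2 and 98.2 (-0.36, 0.156) and Timd4 6.65, 5.59, 8.09, 9.65 and 13.6 (-0.51, 0.243). Marco (0.68, limma adjusted p = 0.285) and Cd5l (0.04) were not lower. Replicates 1 and 2 were the lowest 2 of the 5 for Clec4f, Vsig4, Timd4, Cd163, Cd5l, C1qa and C1qb. They are the MYC+Ex3 livers without keratin reads. They are also the deepest of the group, at 6.57 and 7.31 M reads in genes against 3.75 to 5.1 M. The highest RPKM of any gene was 245 and 220 in them and 303 to 396 in replicates 3 to 5. Keratin reads and depth cannot be told apart here. Within the libraries without keratin reads, 2 wild-type against 2 MYC+Ex3 livers, 7 of 10 genes were called lower, where 8.44% of genes were. They were Clec4f (-0.89), Vsig4 (-1.08), Timd4 (-1.34), Cd163 (-1.47), Csf1r (-0.91), C1qa (-0.81) and C1qb (-0.74). Within the libraries with keratin reads, 3 against 3, Cd163 alone was called, and Clec4f (0.00), Timd4 (0.05), C1qa (0.19) and C1qb (0.26) did not lie lower. The part of the keratin-bearing libraries, or of depth, in these results was not tested further. Replicate 4 had the highest Marco (53.9 RPKM, others 9.27 to 20.1) and Cd68 (67.1, others 18.3 to 31.6) of its group.

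Adding Ex3 to MYC gave no called difference among the 10 in these fits. MYC+Ex3 livers against MYC livers gave 0 of 10 at a limma adjusted p under 0.05 and 0 at an unadjusted p under 0.05, with 0.19% of genes called, and the largest difference was -0.48 ± 0.443 (SE) for Marco. Within the libraries without keratin reads all 10 lay lower in MYC+Ex3 livers, from -0.46 ± 0.181 (SE) for Csf1r to -0.96 ± 0.265 for Cd163. None was called there, where 6 of 13346 genes were, and the lowest limma adjusted p was 0.13, for Vsig4 and C1qa. The interaction of MYC and Ex3 also gave 0 of 10 by both counts. For it 0% of the 13688 genes were called and 132 had an unadjusted p under 0.05, and the largest value was -0.52 ± 0.394 (SE) for Cd68.

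Other genes of the short-term livers were counted from lists of their own, to be read against the 16.9% of all genes called higher and 5.36% called lower in MYC livers, and 17.9% and 6.18% in MYC+Ex3 livers. Of 10 further Kupffer genes, 0 were called in MYC livers and 2 fell in MYC+Ex3 livers: Slc40a1, the iron exporter ferroportin (-0.45, limma adjusted p = 0.0236), and Id3 (-0.53, 0.0379), a regulator needed for Kupffer cell identity that other liver cells express too. Of 14 further phagocyte genes, 0 were called in either. Of 10 genes of monocytes and recruited macrophages, 3 rose in MYC livers and 1 in MYC+Ex3 livers, counts not far from those shares, with medians of 0.85 and 0.42. Trem2, a lipid receptor of recruited macrophages, read 2.83, 3.17, 6.57, 6.36 and 7.97 RPKM in MYC livers and 0.393 to 2.45 in wild-type livers (1.53 ± 0.455 SE, limma adjusted p = 0.0198). Ccr2, the chemokine receptor of blood monocytes, also rose (0.83, 0.024). Gpnmb, a lysosomal protein of lipid-laden macrophages, rose in MYC+Ex3 livers (1.26, 0.0323), where replicate 4 held 7.64 RPKM and the others 0.24 to 3.44. The ligand genes Csf1 (0.10 and 0.05) and Il34 (-0.41 and -0.69) were not called in MYC or MYC+Ex3 livers. Of 10 markers of the sinusoidal endothelium, on which Kupffer cells sit, 4 fell in MYC livers and 1 in MYC+Ex3 livers, and their summed level was 256 to 420 RPKM in wild-type, 152 to 317 in MYC and 163 to 310 in MYC+Ex3 livers. Neutrophil markers, 8 in the table, were called in neither, with sums of 17.8 to 200 RPKM in wild-type and 19.7 to 181 in MYC livers. The part of these cells in the macrophage results was not tested.

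In established tumours the set fell, and unevenly. Against 4-OHT livers, 9 of 10 genes were called lower in MYC tumours, where 13.7% of 11854 genes tested were called lower and 36.2% higher. In MYC+Ex3 tumours 8 of 10 were called lower, where 18.4% were called lower and 42.3% higher. The median difference of the 10 was -1.53 in MYC and -1.58 in MYC+Ex3 tumours, and that of all genes tested 0.19 and 0.23. Both tumour groups are compared with the same 7 livers. Rescaling by the median ratio took the medians of all genes to 0.01 and 0.05, a shift of up to 0.18, and the share of calls that were higher from 72.6 to 53.7% and from 69.7 to 55.6%. No called gene of the 10 changed direction under it.

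Clec4f, Timd4, Cd163 and Vsig4 had the largest differences of the 10 in both tumour groups. Clec4f read 20.4 to 30.2 RPKM in the 4-OHT livers, with a median of 27.1, and 3.88, 4.25 and 3.68 in the MYC+Ex3 tumours. All 3 tumours lay far below every liver, and their mean was 15.3% of the liver mean. The difference was -2.43 ± 0.401 (SE; limma adjusted p = 0.000137). The MYC tumours read 1.54, 14.9 and 1.86 RPKM (-2.44 ± 0.401 SE, limma adjusted p = 0.000242), and replicate 2 lay 1.72-fold below the liver mean, while replicates 1 and 3 averaged 15.1-fold below it. Timd4 had a median of 7.75 RPKM in the 4-OHT livers (range 5.43 to 11) and read 0.734, 0.6 and 0.625 in MYC+Ex3 tumours, a mean 12.1-fold lower (-2.40 ± 0.376 SE, limma adjusted p = 8.59e-05). In the MYC tumours it read 0.0577, 4.84 and 0.336 RPKM (-2.11, 0.000447), and the first of these values rests on 3 reads. Vsig4 went from a median of 19.9 RPKM (14.5 to 23.1) to 5.86, 5.82 and 4.82 in MYC+Ex3 tumours (-1.66, limma adjusted p = 0.00493) and to 1.34, 15.9 and 1.32 in MYC tumours (-2.19, 0.00116).

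Cd163 fell in both tumour groups with all 6 tumours below all 7 livers. Its median in the 4-OHT livers was 6.22 RPKM (3.76 to 10.5), against 0.298, 1.74 and 0.314 in MYC tumours (-2.14 ± 0.265 SE, limma adjusted p = 2.93e-05) and 1.02, 1.21 and 1.03 in MYC+Ex3 tumours (-1.82, 4.74e-05). It was thus the gene of the 10 called lower both in livers 4 days after MYC and in tumours, with different control livers in each. Marco fell from a median of 8.89 RPKM (6.98 to 19.9) to 1.51, 2.97 and 3.61 in MYC+Ex3 tumours (-1.53, limma adjusted p = 0.0308) and to 0.0422, 12.4 and 0.669 in MYC tumours (-1.86, 0.0148). Replicate 2 of the MYC tumours lay inside the liver range. The Marco calls were lost without MYC tumour replicate 1 or 3 in MYC tumours, and without any 1 of the 3 MYC+Ex3 tumours or 4-OHT replicate 4 in MYC+Ex3 tumours. The MYC+Ex3 call was also lost with a pseudocount of 0.1 (-1.83, limma adjusted p = 0.0914) and with no filter (0.0597). Cd5l had the smallest difference of the 6: it fell from a median of 31.8 RPKM (26.7 to 36) to 7.44, 29.6 and 17.7 in MYC tumours (-0.96, limma adjusted p = 0.0086). In MYC+Ex3 tumours it read 18.2, 22.9 and 21.9 RPKM, all below every liver, yet missed the threshold in the fit that shares its spread with the MYC tumours (-0.59 ± 0.267 SE, limma adjusted p = 0.0708). Fitted with the 2 groups alone it passed at the same value (limma adjusted p = 0.000436), and it also passed without MYC tumour replicate 1 or 2 and after rescaling (-0.81, 0.0191).

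**Figure D2:**
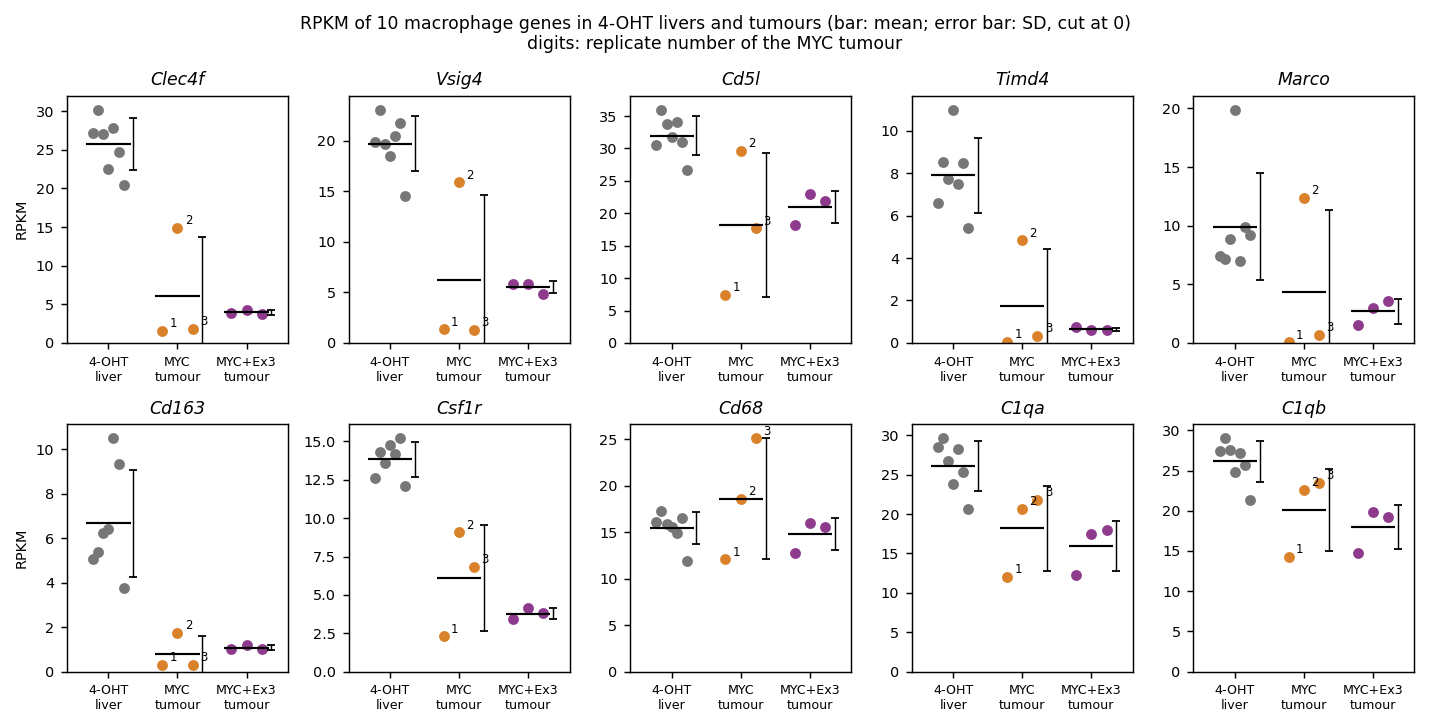
RPKM (y axis) of each gene in 7 4-OHT livers, 3 MYC tumours and 3 MYC+Ex3 tumours, with the group mean as a bar and the SD as an error bar. For Clec4f, Vsig4, Timd4 and Marco, MYC tumour replicate 2 stands far above replicates 1 and 3, while Cd68 in the tumours overlaps the livers.

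Of the 4 general markers, Csf1r fell about as much as Marco and Vsig4 in MYC+Ex3 tumours, C1qa and C1qb fell less, and Cd68 was called in neither tumour group. Csf1r, the receptor on which these cells depend, had a median of 14.2 RPKM in the 4-OHT livers (12.1 to 15.2) and read 2.31, 9.09 and 6.85 in MYC tumours (-1.21 ± 0.238 SE, limma adjusted p = 0.000934) and 3.4, 4.14 and 3.81 in MYC+Ex3 tumours (-1.63, 4.83e-05). Its 6 tumours lay below all 7 livers. C1qa fell from a median of 26.7 RPKM (20.6 to 29.6) to 12, 20.7 and 21.8 in MYC tumours (-0.54, limma adjusted p = 0.0219) and 12.3, 17.5 and 18 in MYC+Ex3 tumours (-0.69, 0.00399). C1qb fell by 0.39 (limma adjusted p = 0.0485) and by 0.52 (0.00892). The C1qb call in MYC tumours was lost without any 1 of 9 of the 13 libraries, and the value was -0.17 without MYC tumour replicate 1, which also ended the C1qa call there (-0.28, limma adjusted p = 0.148). A term for sex, inferred from Xist, ended both calls (-0.50 for C1qa and -0.36 for C1qb). All 3 MYC tumours read as male, against 4 of the 7 4-OHT livers. Without MYC+Ex3 tumour replicate 1 the C1qb call in MYC+Ex3 tumours was lost (-0.39, limma adjusted p = 0.0661).

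Cd68 read 11.9 to 17.3 RPKM in the 4-OHT livers, with a median of 15.9. It read 12.1, 18.6 and 25.1 RPKM in MYC tumours and 12.8, 16 and 15.6 in MYC+Ex3 tumours, within or above the liver range. The differences were 0.20 ± 0.173 (SE; limma adjusted p = 0.346) and -0.06 ± 0.173 (0.789), and rescaling took the first to -0.01. Without MYC tumour replicate 1 Cd68 was called higher in MYC tumours (0.46, limma adjusted p = 0.0178). The ratio of Clec4f to Cd68 was 1.44 to 1.86 in the 4-OHT livers, 0.236 to 0.302 in MYC+Ex3 tumours and 0.127, 0.803 and 0.0742 in MYC tumours, with every tumour below every liver. The sum of the 6 resident markers over that of the 4 general ones was 1.14 to 1.4 in livers and 0.63 to 0.72 in MYC+Ex3 tumours. In MYC tumours it was 0.263, 1.12 and 0.288, and in the 20 short-term livers it stayed between 1.07 and 1.41.

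**Figure D3:**
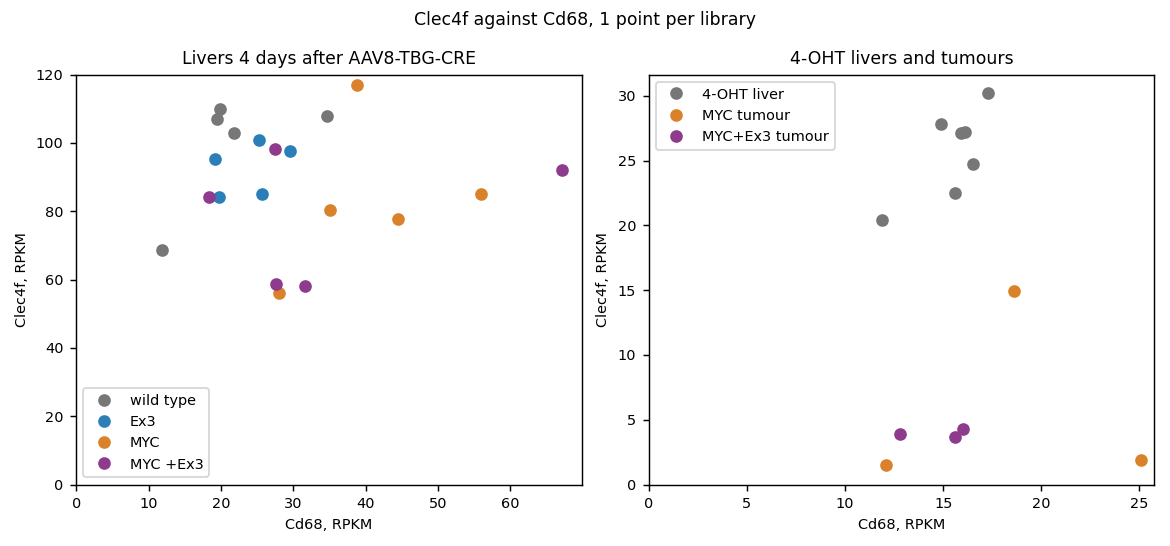
Clec4f (y axis) against Cd68 (x axis), both in RPKM, with 1 point per library. In the right panel the tumours spread along Cd68 from 12.1 to 25.1 RPKM at Clec4f levels below every 4-OHT liver.

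The titles of the 4-OHT livers begin their numbers with S14 (4 livers) or S15 (3 livers). Against the S15 livers alone, 5 of 10 genes were called lower in MYC tumours, where 7.82% of genes were, and 4 of 10 in MYC+Ex3 tumours, where 12.8% were. The calls of Cd5l, Marco, C1qa and C1qb in MYC tumours, and of Vsig4, Marco, C1qa and C1qb in MYC+Ex3 tumours, missed the threshold with this smaller group, at differences of the same sign. Against the S14 livers alone, 8 of 10 (10.9% of genes) and 7 of 10 (16%) were called lower, with C1qb lost in MYC tumours (limma adjusted p = 0.0702) and Marco in MYC+Ex3 tumours (0.0756). Clec4f, Timd4, Cd163 and Csf1r were called in both tumour groups against either set.

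MYC tumour replicate 2 decided the comparison of the tumour groups. With all 6 tumours, 0 of 10 genes were called by limma and 0 had an unadjusted p under 0.05, where 4.13% of 11854 genes were called. The differences of MYC+Ex3 minus MYC tumours ran from -0.42 ± 0.282 (SE) for Csf1r to 0.52 ± 0.526 for Vsig4. Without replicate 2, 3 of 10 were called higher in MYC+Ex3 tumours: Vsig4 (1.47 ± 0.17 SE, limma adjusted p = 0.0001), Clec4f (0.87, 0.00441) and Marco (1.44, 0.0329). In that fit 3.63% of genes were called higher and 6.5% in either direction. The MYC group then holds replicates 1 and 3 alone. Without replicate 1, Csf1r was called lower (-0.90, limma adjusted p = 0.00215). Leaving out replicate 2 left 9 of 10 genes called lower against the 4-OHT livers, with larger differences for Clec4f (-3.30), Vsig4 (-3.14), Timd4 (-2.88), Marco (-2.97), Cd163 (-2.50) and Csf1r (-1.54). There 13.2% of genes were called lower. In that fit Cd5l was called in MYC+Ex3 tumours too, making 9 of 10, where 19.1% of genes were called lower.

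Replicate 2 also differed in genes of other cells. Its sum of the 6 resident markers was 79.5 RPKM, next to 10.7 and 22.2 in replicates 1 and 3 and 80 to 110 in the 4-OHT livers. Lymphocyte markers summed to 11.5 RPKM against 1.92 and 3.78, and Krt19, a bile duct keratin, reached 3.98 RPKM against at most 0.138 in the other MYC tumours. It had the highest neutrophil sum of the 3, 134 RPKM against 13 and 65.8, while hepatocyte markers summed to 261 RPKM against 393 and 247. The highest RPKM of any gene was 42.9 in replicate 2 and 67.5 and 45.3 in replicates 1 and 3. The hepatocyte sums depend on that ceiling and cannot be read as hepatocyte content. The part of the other cells in the macrophage values was not tested.

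**Figure D4:**
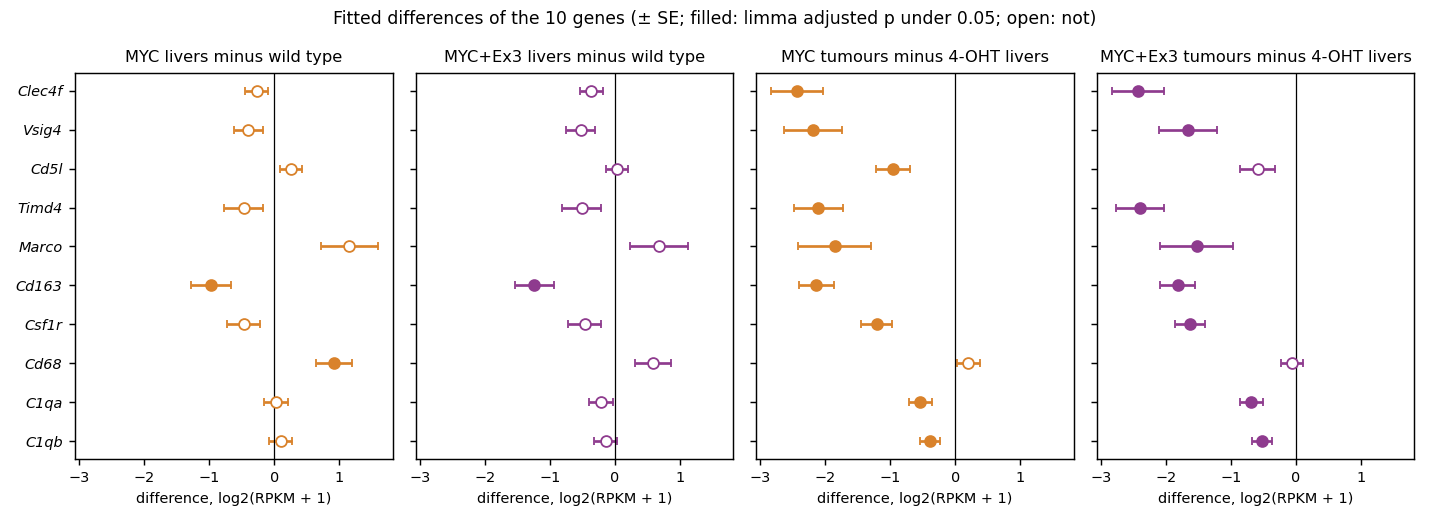
Differences on the log2(RPKM + 1) scale (x axis, ± SE) of the 10 genes in 4 comparisons; filled points had a limma adjusted p under 0.05. In the short-term livers 2 genes and 1 gene were called, and in the tumours 9 and 8 were called lower.

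Further Kupffer genes fell with the set in tumours. Of 10, 7 were called lower in MYC tumours and 7 in MYC+Ex3 tumours, and 0 higher in either, where 13.7 and 18.4% of all genes were lower. Without MYC tumour replicate 2 the counts were again 7 and 7, and Folr2 (-2.81), Clec1b (-1.58) and Emr1 (-1.36) differed more in MYC tumours. Folr2, a folate receptor of resident macrophages, fell by 2.12 (limma adjusted p = 0.000324) and by 2.52 (4.18e-05). Clec1b, the platelet receptor CLEC-2 that Kupffer cells also carry, fell by 1.00 (limma adjusted p = 0.0116) and 0.98 (0.00994), and Slc40a1 by 0.36 (0.0112) and 0.57 (0.000311). Emr1 fell by 1.01 (limma adjusted p = 0.00529) and 1.75 (5.35e-05), from 9.24 to 11.8 RPKM in the livers to 1.82, 8.42 and 6.21 and to 2.15, 2.97 and 2.3. Among the factors that set Kupffer identity, Id3 (-1.25 and -1.72) was called lower in both tumour groups and Nr1h3, the gene of LXRα, in MYC+Ex3 tumours (-0.57, limma adjusted p = 0.00406). Hepatocytes and endothelial cells express Id3 and Nr1h3 too. Spic, a factor of iron-recycling macrophages, was called in neither (0.30 and 0.04). The ligand gene Csf1 fell by 1.39 (limma adjusted p = 5.58e-05) and 1.57 (9.11e-06), from 3.31 to 7.1 RPKM in livers to 0.839 to 1.82 in MYC and 0.776 to 1.61 in MYC+Ex3 tumours. Il34 read 0.527 to 1.49 RPKM in livers, 0.205 to 0.56 in MYC tumours and 0.106 to 0.389 in MYC+Ex3 tumours, and did not pass the filter for testing.

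Of 13 further phagocyte genes tested, 5 fell in MYC tumours and 7 in MYC+Ex3 tumours, with medians of -0.37 and -0.54, and without MYC tumour replicate 2 the counts were 5 and 8. In the latter they included Aif1 (-1.69, limma adjusted p = 1.76e-05), the high-affinity IgG receptor Fcgr1 (-1.32, 4.81e-05) and the protease gene Ctss (-1.07, 0.000364). C1qc fell by 0.51 (limma adjusted p = 0.0233) and 0.60 (0.00823), close to C1qa.

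Of 8 monocyte and recruited macrophage genes tested, 4 rose in MYC tumours and 5 in MYC+Ex3 tumours, and 0 fell, where 36.2 and 42.3% of all genes were called higher. These counts are near that background. Without MYC tumour replicate 2, 1 of 7 rose in MYC tumours, namely Gpnmb (2.08, limma adjusted p = 0.000491), while Trem2 no longer passed the filter for testing. Gpnmb read 0.0371 to 0.159 RPKM in the 4-OHT livers, 1.17, 1.8 and 8.42 in MYC tumours and 1.38, 0.82 and 2.29 in MYC+Ex3 tumours (1.85 and 1.19, limma adjusted p = 0.000412 and 0.00601). Trem2 rose in MYC tumours, with 1.68, 1.6 and 4.53 RPKM against 0.343 to 0.765 in livers (1.11, limma adjusted p = 0.0005), and was 0.53, 0.439 and 0.907 in MYC+Ex3 tumours (0.05, 0.855), lower than in MYC tumours (-1.07, limma adjusted p = 0.021). Itgam rose in MYC+Ex3 tumours (0.63, limma adjusted p = 0.0493), and Ccr2 was called in neither. Chil3, a gene of monocytes and immature neutrophils, rose by 3.48 in MYC+Ex3 tumours (limma adjusted p = 3.76e-05), F13a1 by 1.13 (8.95e-05) and Ly6c2 by 1.67 (0.00112). All 8 neutrophil markers tested rose in MYC+Ex3 tumours and 4 of 8 in MYC tumours, and 1 of 8 in MYC tumours without replicate 2. Among them Mpo, which marrow precursors express, read 9.22 to 13.7 RPKM in MYC+Ex3 tumours and 0.028 to 0.334 in livers. Their part in the macrophage results was not tested.

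Markers of other liver cells went different ways. Of 10 sinusoidal endothelial markers, 8 were called lower in each tumour group, where 13.7 and 18.4% of all genes were, with summed levels of 64.3 to 107 RPKM in livers, 27.5 to 56.9 in MYC tumours and 33.5 to 38.3 in MYC+Ex3 tumours. Stellate cell and fibroblast markers gave 3 and 5 of 8 lower and 2 and 1 higher, and all 3 dendritic cell markers tested were lower in both. Red cell markers were called in 0 of 4 in MYC tumours, and 3 of 4 rose in MYC+Ex3 tumours. Hepatocyte markers were called lower in 0 of 8 in MYC tumours and 3 of 8 in MYC+Ex3 tumours, and their sums overlapped between groups (285 to 387, 247 to 393 and 240 to 310 RPKM). The highest RPKM of any gene was 42.9 to 67.5 in these libraries, so sums this high draw on genes near that ceiling. The hepatocyte sums therefore cannot show whether these markers were kept. The part of the other liver cells in the fall of the macrophage genes was not tested either.

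**Figure D5:**
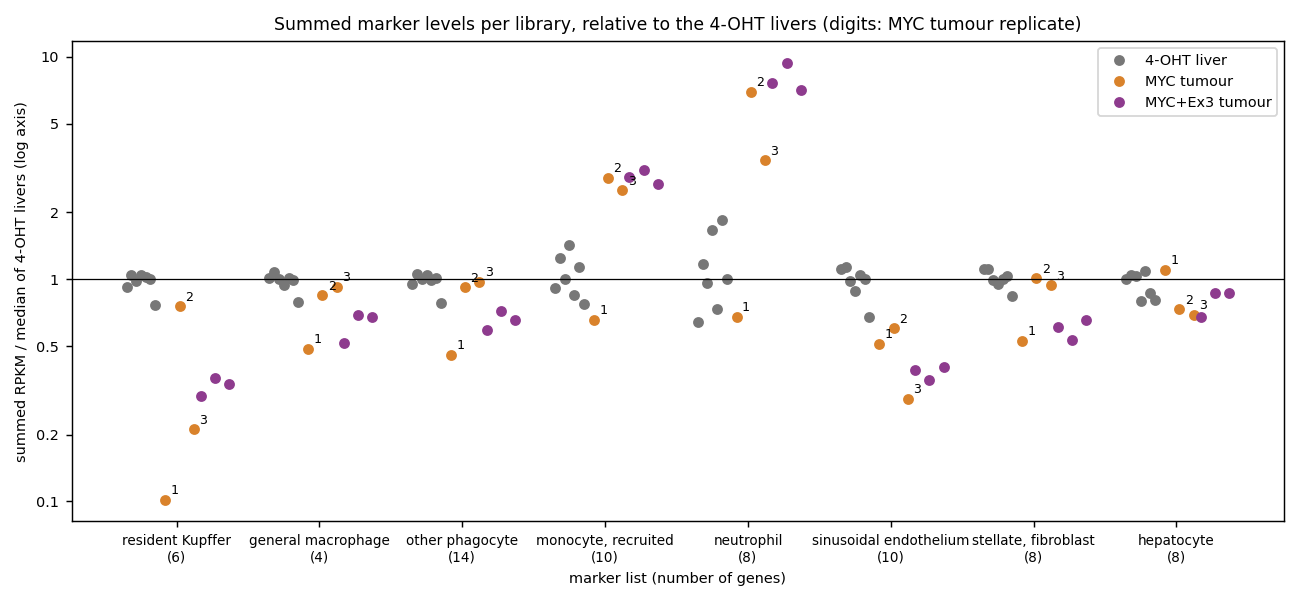
Summed RPKM of marker lists in each library of the tumour experiment, divided by the median of the 4-OHT livers (y axis, log scale); digits name the MYC tumour replicate. The resident Kupffer sum of MYC tumour replicates 1 and 3 and all MYC+Ex3 tumours lies far below every liver, and replicate 2 lies at the lower edge of the livers. The neutrophil sum of the MYC+Ex3 tumours lies above every liver. The hepatocyte sums draw on genes near the ceiling of the scale.

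The authors' deposited table gives fold changes and adjusted p-values for the same comparisons except MYC+Ex3 against Ex3 livers and the interaction. In the authors' deposited table Clec4f has a log2 fold change of -2.90 in MYC+Ex3 tumours (adjusted p = 2.05e-110), Timd4 -3.75 and Cd68 -0.28 (adjusted p = 0.0522). For MYC tumours the authors' deposited table gives no adjusted p for Clec4f (-1.94) or Vsig4 (-1.54), and the reason is not given in the sources used here. MYC tumour replicate 2 lies far from the others for both. It does so for Timd4 and Marco too, and these have one (Timd4 -1.55, adjusted p = 0.0366 in the authors' deposited table). In MYC tumours the authors' deposited table has Marco at -0.81 (adjusted p = 0.336), which was called in the fits above. In MYC+Ex3 tumours the authors' deposited table has Cd5l at -0.82 (adjusted p = 5.06e-12), which missed the threshold above. In MYC livers the authors' deposited table has Cd68 at 0.75 (adjusted p = 0.0112) and Cd163 at -0.95 (adjusted p = 0.0126). In MYC+Ex3 livers it has, beside Cd163 (-1.37, adjusted p = 3.15e-06 in the authors' deposited table), Vsig4 (-0.56, 0.0329) and Csf1r (-0.54, 0.0184), which missed the threshold in the fits above.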

How the data were processed

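Total RNA of 33 samples was sequenced from stranded libraries, per the labels' protocols. Per the submitters' processing notes the tools were TopHat2 2.0.8, SAMtools, featureCounts 1.4.5-p1 and DESeq2, with build mm9; their settings are not given in the sources used here. The deposited values are RPKM, beside which the authors' deposited table gives log2 fold changes and adjusted p-values.

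RPKM was taken to log2(RPKM + 1) and fitted with limma 3.58.1 (R 4.3.3; eBayes with trend), the 20 short-term livers in 1 fit and the 13 libraries of the tumour experiment in another. Genes with an RPKM of at least 1 in at least 3 libraries were tested, with Benjamini-Hochberg adjustment over all of them, and called at an adjusted p under 0.05. A difference on this scale understates the change of low genes. In all, 9 comparisons were made. The scripts were tested on simulated data.

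Whole reads behind the RPKM were recovered for 20485 of 20485 expressed genes (within 0.02 of a whole number) and give the depths stated. Replicate numbers are in accession order and pair nothing. The 10 genes, the other lists and the alternatives were chosen with earlier results of these data known. The text names the 10 genes, a fixed panel of 12 related genes (1 of them is not reported here), and from 3 lists up to 3 further called genes with the smallest adjusted p in MYC+Ex3 livers and in MYC+Ex3 tumours. In each experiment it also names the 5 genes whose deviations from the group means correlated best with the mean standardised deviation of the 10. Krt19 and Mpo were named after their values were seen. Alternatives were the pseudocount, the filter, rescaling, the groups fitted, sex, the keratin sets, the S14 and S15 livers, and leaving out each library. Counts of the other lists and correlations without MYC tumour replicate 2 were added after seeing the data.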

Additional observations from a re-analysis of the deposited data

Results flagged for a closer look

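Of 50 tests for a value far from the rest of its group (10 genes in the 4 short-term groups and the 4-OHT livers, Dixon's test), 4 passed, where chance flags about 1 in 20. Clec4f in wild-type liver replicate 2 was 68.8 RPKM, below the other 4 wild-type livers at 103 to 110. In MYC+Ex3 liver replicate 4, Marco was 53.9 RPKM with the others at 9.27 to 20.1, and Cd68 was 67.1 RPKM with the others at 18.3 to 31.6. Marco in 4-OHT liver replicate 4 was 19.9 RPKM, with the others at 6.98 to 9.86. Groups of 3 tumours were not tested in this way.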

How the results depend on the processing

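No called difference of the 10 genes changed sign under any alternative run. With 1 library left out, 846 of 910 values kept their sign and their side of the threshold, and under the other alternatives 396 of 440 did. These values cover all 10 genes in MYC and MYC+Ex3 livers against wild type and in the tumour comparisons. In the other comparisons they cover Marco and Cd68 (Ex3 against wild type), Cd163 and Marco (MYC+Ex3 against Ex3), Marco (MYC+Ex3 against MYC) and Cd68 (interaction). The number of the 10 genes called moved by over 1.5 times as follows, beside smaller changes in tumours. For MYC livers against wild type, 2 became 1 with the compared groups alone and 0 without keratin-bearing libraries. For MYC+Ex3 livers against wild type, 1 became 2 after rescaling and 7 without keratin-bearing libraries. For MYC+Ex3 against Ex3 livers, 1 became 0 with no filter, 2 with the compared groups alone, 6 without and 0 with only keratin-bearing libraries. Against the S15 livers alone, the 9 of MYC tumours became 5 and the 8 of MYC+Ex3 tumours 4. The smaller changes were 9 to 7 with a sex term and 9 to 8 with no filter, the compared groups alone or the S14 livers in MYC tumours. In MYC+Ex3 tumours they were 8 to 7 with a pseudocount of 0.1, no filter or the S14 livers, and 8 to 9 after rescaling or with the compared groups alone. Leaving out 1 library gave 0 to 3 calls in MYC livers, 1 to 2 in MYC+Ex3 livers against wild type, 0 to 2 against Ex3 livers, 7 to 9 in MYC tumours, 6 to 9 in MYC+Ex3 tumours and 0 to 3 between the tumour groups. The other comparisons stayed at 0.

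Sign changes were seen among differences past no threshold, and the cause was not tested. The list below covers the same chosen values, and other genes changed sign too. With only keratin-bearing libraries, MYC+Ex3 against Ex3 livers gave 0.14 for Timd4 and 0.19 for C1qb, against -0.17 and -0.09 in the main fit. Ex3 against wild-type livers gave 0.13 for C1qa, against -0.01. Without keratin-bearing libraries, the interaction gave -0.73 for Cd163, against 0.04. In MYC livers C1qa was -0.07 after rescaling and -0.17 without keratin-bearing libraries, and C1qb was -0.01 and -0.12. In MYC+Ex3 livers Cd5l was -0.04 after rescaling and -0.46 without keratin-bearing libraries, and with only these Clec4f was 0.00, Timd4 0.05, C1qa 0.19 and C1qb 0.26. Cd68 was -0.01 in MYC tumours after rescaling and 0.04 in MYC+Ex3 tumours against the S15 livers. Timd4 between the tumour groups was 0.11 with a pseudocount of 0.1. With 1 library left out, the ranges that crossed 0 were, in livers, -0.13 to 0.11 (C1qa, MYC), -0.04 to 0.16 (C1qb, MYC) and -0.11 to 0.12 (Cd5l, MYC+Ex3), and, in tumours, -0.03 to 0.46 (Cd68, MYC) and -0.12 to 0.04 (Cd68, MYC+Ex3). Between the tumour groups they were -0.45 to 0.87 for Clec4f, -0.13 to 0.80 for Cd5l, -0.76 to 0.47 for Timd4, -0.40 to 1.44 for Marco and -0.41 to 0.01 for C1qa. MYC livers were not fitted within the keratin-bearing set, which holds 1 of them. With 3 tumours a group and top values near a limit, small differences of C1qa, C1qb, Cd5l and Cd68 are the least well resolved. No paired analysis was possible because the labels give no shared replicate numbers.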
